A study of Mus musculus with 23 samples.

Results

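The subject is the spread of Notch3 among leukemias that arose from wild-type thymus. Of the 23 RNA-seq libraries of the series, 14 came from wild-type-derived T-cell acute lymphoblastic leukemia (WT T-ALL), and these were ranked by their own Notch3 value and split into the 7 highest (high side) and the 7 lowest (low side). The sides were therefore chosen from the readout: the Notch3 difference between them is a description, and the sides are not groups of the study. For this reason the test of every other gene was its association with the Notch3 level as a continuous value over the 14 libraries, and the split is given beside it.

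All 14 leukemias developed in Rag2-/-Il2rg-/- double knockout (DKO) BALB/c hosts, 6 to 8 weeks old at transplantation, which lack T-cell progenitors of their own and carried a newborn B6.Ly5.1 (CD45.1) wild-type thymus lobe under the kidney capsule. The RNA was from whole spleen, so host cells are in it, and each library is 1 mouse, named here by the number in its label. For orientation, values are also given for 6 normal C57BL/6 thymus controls, whose age is not given in the sources used here, and for 3 T-ALL from donor thymus that lacked Notch3. Expression was read as log2(scaled RPKM + 1), where scaled RPKM is reads per kilobase of transcript, corrected for library size, after each library's upper quartile was set to a common level, so values compare between genes per unit of transcript length.

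Notch receptors are cleaved after ligand binding, and the freed intracellular domain joins the DNA-binding protein RBPJ and a Mastermind coactivator in the nucleus to switch on target genes. Fringe enzymes add sugars that set which ligands a receptor answers. In the thymus Notch1 drives T-lineage commitment and the early CD4-CD8- (double-negative) stages, and Notch1 is the receptor most often activated in T-ALL. Notch3 is also expressed in early thymocytes, is itself a target of Notch signaling, and outside the T lineage is known from the mural cells of blood vessels.

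Notch3 (gene ID 18131, chr17:32120820-32166896 in GRCm38.p6) spanned from 3.17 to 5.78 on the log2 scale over the 14 leukemias. From the lowest library upward the low side held WT T-ALL 110 (3.17), 7 (3.98), 108 (4.15), 120 (4.22), 3 (4.38), 14 (4.48) and 48 (4.67). The high side held WT T-ALL 5 (5.04), 36 (5.21), 128 (5.27), 126 (5.31), 4 (5.38), 202 (5.39) and 111 (5.78). The mean was 5.34 ± 0.23 (SD, n = 7) in the high side and 4.15 ± 0.49 (SD, n = 7) in the low side, or 40.0 ± 6.9 against 17.5 ± 5.26 scaled RPKM, a ratio of 2.28. The gap at the split, between WT T-ALL 48 and WT T-ALL 5, was 0.37, so the ranking is a gradient with 1 library, WT T-ALL 110, set apart at its lower end. Normal thymus measured 3.31 ± 0.63 (SD, n = 6), with a highest value of 4.29 that stood above 4 libraries of the low side and below all 7 of the high side. The 3 Notch3 knockout T-ALL measured 3.18 ± 0.58 (SD, n = 3) with a maximum of 3.74, and 1 WT library, WT T-ALL 110, lay at or below that maximum. The knockout value is a gene-level sum over an allele with lacZ in the first coding exon, so it is not a measure of functional transcript.

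**Figure D1:**
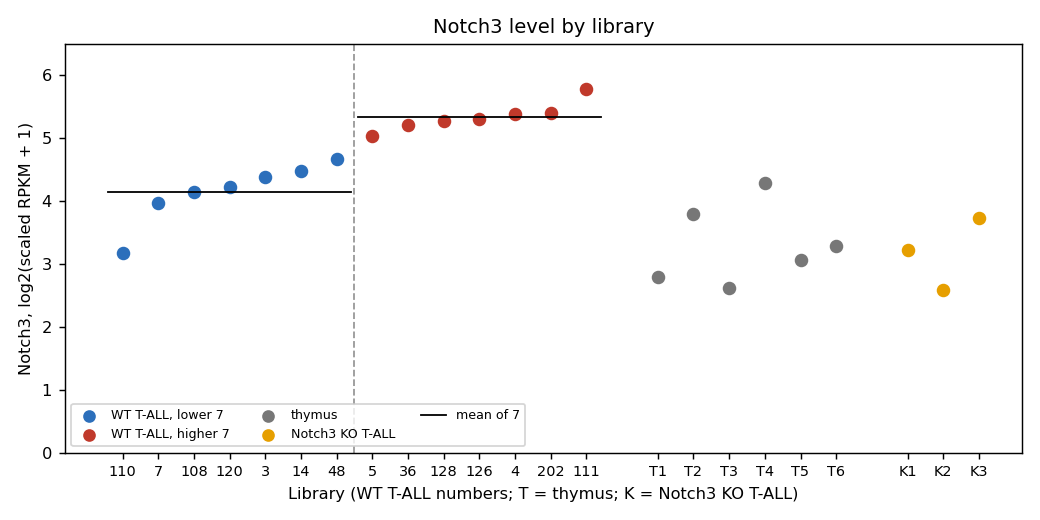
Notch3 in log2(scaled RPKM + 1) in each library, with the 14 WT T-ALL libraries ordered by Notch3 (blue, lower 7; red, higher 7; black lines, means of 4.15 and 5.34), 6 thymus controls (grey) and 3 Notch3 knockout T-ALL (orange). The dashed line marks the split, where neighbouring libraries differ by 0.37.

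Some libraries stood apart in ways that matter for the ranking. WT T-ALL 110, the lowest in Notch3, had the highest neutrophil marker score (the mean log2 value of the detected markers), 10.14 against 8.25 for the next, WT T-ALL 108. In WT T-ALL 7 mitochondrial genes made up 45.9% of summed scaled RPKM, the top of a range that began at 10.3%. WT T-ALL 3, 4, 5 and 7 differed as a set from the other 10 libraries: 173 genes did not overlap between these sets, and 110 of them separated 2 thymus controls from the other 4 in the same direction. This set was read from the values and is named in no label. It held 2 libraries of each side (4 and 5 in the high, 3 and 7 in the low). Within the other 10 libraries r with Notch3 was -0.73 for Notch2, -0.69 for Psen2, 0.71 for Nrarp, 0.81 for Heyl, 0.57 for Dtx1, 0.55 for Ptcra, 0.27 for Hes1, 0.06 for Myc, 0.74 for Rag1, -0.73 for Cd44, 0.82 for Rmnd5a, 0.81 for Plcg1, -0.77 for Hhex and -0.84 for Bcl3, genes described with their values over all 14 further on. The 7 T-cell markers in the table summed to 1394 to 3200 scaled RPKM and 7 B-cell markers to 1.06 to 5.80, but 10 neutrophil markers summed to 639 to 84710, above the T-cell sum in 7 of the 14 spleens, and 10 erythroid markers to 152 to 2092, above it in 1. Between 10154 and 11011 genes per library reached 1 scaled RPKM, and the read depth behind each value is unknown because the files hold no counts.

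No gene passed an adjusted p of 0.05 for association with Notch3 (0 of 11475 tested, or 0.0%; limma, Benjamini-Hochberg), the smallest adjusted p being 0.0576. At an unadjusted p under 0.05 there were 1626 genes (14.2%), of which 704 (6.14%) had a positive and 922 (8.03%) a negative slope. The median r with Notch3 over all genes was 0.04, and the central 90% of genes lay between -0.59 and 0.57. Between the sides 91 genes measured at least 1 log2 unit higher in the high side and 182 at least 1 lower. These counts turned on WT T-ALL 110: without it 724 genes had an unadjusted p under 0.05, 3.48% of genes with a positive and 2.9% with a negative slope, and 163 genes in place of 273 differed by at least 1 log2 unit. In 14 genes (0.122%) every high-side library was above every low-side library, and in 4 (0.0349%) every one was below. The direction of the single genes described next is therefore a measured association that did not survive correction over all genes, and an unadjusted count in a gene list is to be read against 6.14% and 8.03%, or, without WT T-ALL 110, against 3.48% and 2.9%.

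Notch1 (chr2:26457902-26503822), the main Notch receptor of T cells, had the highest r with Notch3 of all genes tested. Its values ran from 6.98 to 7.43 (median 7.26) in the high side and from 5.75 to 6.63 (median 6.47) in the low side, so the sides did not overlap. The means were 7.24 ± 0.19 and 6.37 ± 0.29 (SD, n = 7 each), a difference of 0.87, or 151.5 against 83.1 scaled RPKM. Pearson's r was 0.91 (permutation p = 5e-05) and Spearman's rho 0.75 (permutation p = 0.00295) over the 14 libraries, and the slope was 0.64 ± 0.10 (SE) log2 units per log2 unit of Notch3, with a limma adjusted p of 0.0576. Without WT T-ALL 110 the slope was 0.63 and r 0.86, but the adjusted p 0.721. Without the 2 libraries farthest from the median (110 and 111) r was 0.86 and the limma adjusted p 0.60. Within the 10 libraries of the larger set these were 0.93 and 0.175. With the neutrophil score as a covariate the limma adjusted p of Notch1 was 0.383, and on the rank of Notch3 it was 0.273. It was 0.0279 with the library set as a term, chosen after seeing the data, and 0.0443 without WT T-ALL 120. In the 6 normal thymus controls, which took no part in the ranking, r between Notch1 and Notch3 was 0.94 (exact permutation p = 0.00833) and rho 0.83 (exact permutation p = 0.0583). Thymus 2 and 4 had the highest Notch3 (3.79 and 4.29) and Notch1 (5.60 and 5.84) of the 6 and also the lowest mitochondrial shares (7.3% and 8.11% against 13.4% to 24.2%), and the part of this in the r values of thymus was not tested. Notch1 in thymus was lower, at 4.93 ± 0.62 (SD, n = 6).

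Of the other Notch receptors and ligands listed, Notch2 was the only one beside Notch1 to reach 1 scaled RPKM in 3 leukemias, and Notch4, Dll1, Dll3, Dll4, Jag1 and Jag2 did not. Notch2 went the other way from Notch1: its values were 1.42 to 2.71 (median 1.97) in the high side and 1.92 to 3.28 (median 2.44) in the low side, with r = -0.63 (permutation p = 0.0159; limma adjusted p = 0.199). The sides overlapped, and r was -0.46 without WT T-ALL 110. In thymus the sign was positive (r = 0.90, n = 6, exact permutation p = 0.025; rho = 0.66, exact permutation p = 0.175).

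Among 21 genes of receptor processing and turnover, all of which were tested, 0 had a positive and 2 a negative slope at an unadjusted p under 0.05, and the median r was -0.08. The first was Lfng (lunatic fringe, chr5:140607341-140615545), a sugar transferase that modifies Notch receptors in thymocytes. Lfng measured 1.27 to 2.44 (median 1.91) in the high side and 1.97 to 4.27 (median 3.35) in the low side, with all but 1 of the low-side libraries, WT T-ALL 14, above the highest of the high side. Its means were 1.88 ± 0.45 and 3.16 ± 0.75 (SD, n = 7 each), with r = -0.81 (permutation p = 0.00045), rho = -0.71 and limma adjusted p = 0.0993. Leaving out WT T-ALL 110 gave r = -0.72, and the 10 libraries of the larger set gave -0.85. Normal thymus, at 4.11 ± 0.55 (SD, n = 6), was above the low-side mean, and r there was 0.43 (exact permutation p = 0.386). For the other fringes r was -0.01 (Mfng, manic fringe) and -0.12 (Rfng, radical fringe).

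The other was Psen2 (presenilin 2), a catalytic subunit of the gamma-secretase that releases the intracellular domain. It measured 1.83 to 2.63 in the high side and 2.23 to 3.54 in the low side, with r = -0.73 (permutation p = 0.00286; limma adjusted p = 0.118) and -0.61 without WT T-ALL 110. Ncstn and Aph1a, further subunits of that enzyme, had r = -0.14 and 0.14. The proteases Adam10 and Adam17, which make the first cut after ligand binding, had r = -0.08 and 0.07. In the nuclear complex the median r of 13 members was 0.28, and Rbpj itself had r = 0.21.

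The Notch target genes had more positive than negative slopes. Of 20 listed, 16 were tested, 6 had a positive slope at an unadjusted p under 0.05, 0 a negative one, and 10 a positive r (54.7% over all genes). Leaving out WT T-ALL 110, there were 6 positive and 1 negative (Myc), with Il2ra in place of Tcf7 among the 6. The median r was 0.33 over the 16, against 0.04 over all genes, and 0.19 without WT T-ALL 110. None passed the adjusted threshold. The 6 were Nrarp, Heyl, Dtx1, Ptcra, Tcf7 and Trib2.

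Nrarp, a feedback inhibitor that destabilizes the Notch intracellular domain, measured 3.18 to 6.39 (median 3.79) in the high side and 1.06 to 3.97 (median 2.38) in the low side. Its mean difference was 1.62 and its r 0.73 (permutation p = 0.00353; limma adjusted p = 0.108). The top value was in WT T-ALL 36, and WT T-ALL 48, 14 and 3 of the low side overlapped the high side. Nrarp in normal thymus was 1.83 ± 0.16 (SD, n = 6), below all 7 libraries of the high side.

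Heyl, a bHLH repressor, ranged from 3.92 to 5.58 in the high side and from 1.21 to 4.96 in the low side, a mean difference of 1.49 with r = 0.68 (permutation p = 0.00684; limma adjusted p = 0.121). Its low values were in WT T-ALL 3 (1.21), 110 (1.82) and 7 (2.20). Heyl in normal thymus was 0.21 ± 0.08 (SD, n = 6), below all 14 leukemias. Dtx1 (Deltex 1), an E3 ligase that binds Notch, ranged from 5.61 to 7.58 against 4.03 to 6.68, with r = 0.64 (permutation p = 0.0136; limma adjusted p = 0.153). WT T-ALL 111, the highest in Notch3, had the lowest Dtx1 of the high side (5.61).

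Ptcra, the invariant chain of the pre-T-cell receptor, varied more within the low side (1.37 to 6.53) than within the high side (4.33 to 6.38), with r = 0.57 (permutation p = 0.0333). Trib2, a pseudokinase and leukemia oncogene, had r = 0.56 (permutation p = 0.0378), and Tcf7, the T-cell commitment factor TCF1, 0.57 (permutation p = 0.0309), the latter 0.28 without WT T-ALL 110. The limma adjusted p was 0.235 for Ptcra, 0.241 for Trib2 and 0.307 for Tcf7. Il2ra (CD25) spanned 3.89 to 8.23 in the high side and 0.71 to 7.75 in the low side, and its r of 0.46 had a permutation p of 0.101.

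Hes1 and Myc, targets central to Notch signaling in T-ALL, had an r near 0 over the 14 libraries. Hes1 measured 5.03 to 6.00 (median 5.23) in the high side and 4.61 to 6.46 (median 5.60) in the low side, with r = -0.06 (permutation p = 0.836). Hes1 was 2.43 ± 0.36 (SD, n = 6) in normal thymus, below every one of the 14 leukemias. Myc measured 6.49 to 7.55 in the high side and 6.14 to 7.59 in the low side, with r = -0.09 (permutation p = 0.749). The Myc value turned on 1 library: without WT T-ALL 110, whose Myc was the lowest (6.14), r was -0.63. In thymus Myc and Notch3 had r = 0.97 (n = 6, exact permutation p = 0.00417) and rho = 0.94 (exact permutation p = 0.0167), with the highest Myc in the same thymus 2 and 4 (5.32 and 5.64, against 4.63 to 5.12 in the other 4).

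**Figure D2:**
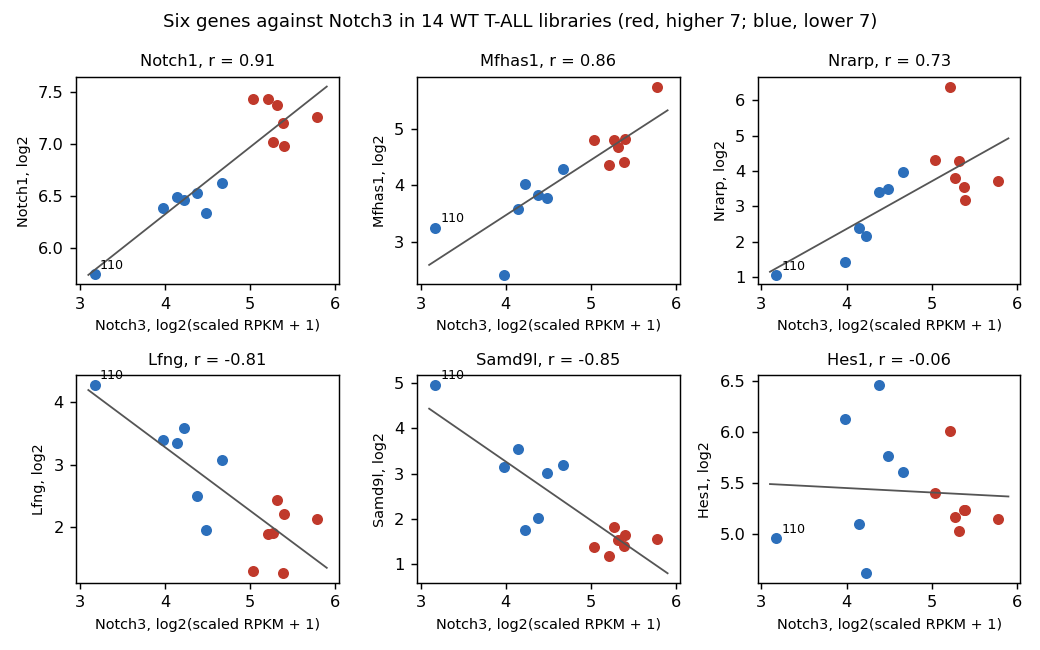
Values of 6 genes (vertical axes) against Notch3 (horizontal axes), both in log2(scaled RPKM + 1), in the 14 WT T-ALL libraries, with a least-squares line; red, higher 7; blue, lower 7; WT T-ALL 110 is marked. Notch1 and Mfhas1 do not overlap between sides, Nrarp, Lfng and Samd9l do, and Hes1 has an r of -0.06.

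The upstream sequences of 5 of these genes are shown, because Notch1 had the pattern nearest to Notch3, Nrarp and Ptcra are targets with a positive r, and Lfng had a negative one. Each is the 250 bases before the transcript start in RefSeq, build GRCm38.p6 (for Notch3 a start just inside the gene's outermost end), written 5′ to 3′ on the gene's strand, and capitals mark TGGGAA, the core of the RBPJ motif, or its reverse complement TTCCCA.
Notch3, chr17:32166891-32167140, minus strand: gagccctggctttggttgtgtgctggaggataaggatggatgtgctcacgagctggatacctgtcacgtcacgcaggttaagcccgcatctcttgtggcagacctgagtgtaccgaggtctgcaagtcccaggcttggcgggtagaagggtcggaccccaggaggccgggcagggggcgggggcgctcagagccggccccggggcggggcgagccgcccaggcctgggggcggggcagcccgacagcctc
Notch1, chr2:26503823-26504072, minus strand: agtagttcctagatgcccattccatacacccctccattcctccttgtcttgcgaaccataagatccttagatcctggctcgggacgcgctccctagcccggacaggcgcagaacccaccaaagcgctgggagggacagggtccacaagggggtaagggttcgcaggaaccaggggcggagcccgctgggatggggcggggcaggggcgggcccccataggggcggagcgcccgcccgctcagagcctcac
Nrarp, chr2:25180508-25180757, plus strand: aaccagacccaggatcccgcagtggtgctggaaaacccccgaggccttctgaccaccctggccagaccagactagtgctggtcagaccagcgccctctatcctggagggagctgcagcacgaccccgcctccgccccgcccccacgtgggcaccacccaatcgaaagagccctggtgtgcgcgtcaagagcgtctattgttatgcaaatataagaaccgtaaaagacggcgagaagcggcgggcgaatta
Ptcra, chr17:46763713-46763962, minus strand: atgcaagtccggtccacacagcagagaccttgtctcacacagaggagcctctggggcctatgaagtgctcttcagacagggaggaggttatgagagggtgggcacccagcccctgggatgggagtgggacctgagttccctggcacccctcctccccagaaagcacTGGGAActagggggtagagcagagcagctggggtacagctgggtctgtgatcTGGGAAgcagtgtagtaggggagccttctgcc
Lfng, chr5:140607091-140607340, plus strand: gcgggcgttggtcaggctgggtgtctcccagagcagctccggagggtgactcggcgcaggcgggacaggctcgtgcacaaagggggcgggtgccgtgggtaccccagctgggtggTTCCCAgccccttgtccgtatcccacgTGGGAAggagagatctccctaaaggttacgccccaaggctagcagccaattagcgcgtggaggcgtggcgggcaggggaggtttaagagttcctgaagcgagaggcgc
The 6 letters were present 2 times upstream of Ptcra and 2 times upstream of Lfng, and not in this window of Notch3, Notch1 or Nrarp. They occurred in 21.6% of all 32851 promoters of the same length in the table and in 23.4% of the 9250 tested genes matched to it. Among Notch targets 12 of 16 were matched and 1, Ptcra, held the letters, and of the 20 genes nearest to Notch3 4 of 14 matched did. A match is only a run of letters.

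Beyond the Notch lists, the genes closest to Notch3 are named by the smallest p in each direction, with at least 5 scaled RPKM in the side where they were higher. None of the 20 passed the adjusted threshold, and the adjusted p ran from 0.0576 to 0.108. Mfhas1 (chr8:35587789-35679449), a leucine-rich repeat protein amplified in some sarcomas, measured 4.35 to 5.75 (median 4.81) in the high side and 2.41 to 4.29 (median 3.78) in the low side, without overlap. Its r was 0.86 (permutation p = 8e-05) and its rho of 0.92 was above that of Notch1. Without WT T-ALL 110 r was 0.89, and in normal thymus it was 0.93 (n = 6, exact permutation p = 0.00833), with a rho of 0.83 (exact permutation p = 0.0583).

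Spg11 (spatacsin), a protein of lysosome recycling, also separated the sides, with 3.54 to 3.84 against 2.57 to 3.51 and r = 0.88 (permutation p = 5e-05). Msi2, an RNA-binding protein of hematopoietic stem cells, had means of 5.28 ± 0.33 and 4.47 ± 0.30 (SD, n = 7 each) and r = 0.88 (permutation p = 3e-05). Traf6, the ubiquitin ligase of Toll-like and interleukin-1 receptor signaling, had r = 0.86 on a mean difference of 0.52. Fkbp5, a glucocorticoid-induced chaperone of the glucocorticoid receptor, had means of 7.95 and 6.96 and r = 0.81. WT T-ALL 111 held the top value of both Fkbp5 (8.80) and Mfhas1 (5.75). The other positive genes were Desi1 (r = 0.83), the phosphatase Ptpn14 (0.83), the sulfatase Arsi (0.80) and the TFIIH subunit Gtf2h4 (0.78).

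Among the 10 genes of negative slope, Samd9l, an interferon-induced restriction factor, measured 1.19 to 1.81 (median 1.53) in the high side and 1.75 to 4.96 (median 3.16) in the low side, or 1.86 against 9.91 scaled RPKM, with r = -0.85 (permutation p = 0.00019; limma adjusted p = 0.0576). Only WT T-ALL 120 of the low side lay within the range of the high side. Normal thymus stood at 4.85 ± 0.36 (SD, n = 6). Samhd1, a nucleotide hydrolase, had r = -0.79 and Ifi27l2a -0.79, both of them interferon-induced as well.

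Zbtb7b (ThPOK), the factor of CD4 lineage choice, measured 0.69 to 2.05 in the high side and 1.22 to 4.58 in the low side, with r = -0.84 (permutation p = 0.00025). Cdc42ep3, a Cdc42 effector, had r = -0.85, Ppp3ca, the calcineurin catalytic subunit, -0.81, the phosphatase Ptpn12 -0.81, the actin regulator Vasp -0.80 and Lipg, endothelial lipase, -0.79. WT T-ALL 110 was the highest of the 14 libraries in every one of the 10 negative genes, Lfng included. Absolute r over the 20 genes was 0.61 to 0.91 without it and 0.78 to 0.93 within the 10 libraries of the larger set, as a description only, since the genes were chosen on these same libraries.

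**Figure D3:**
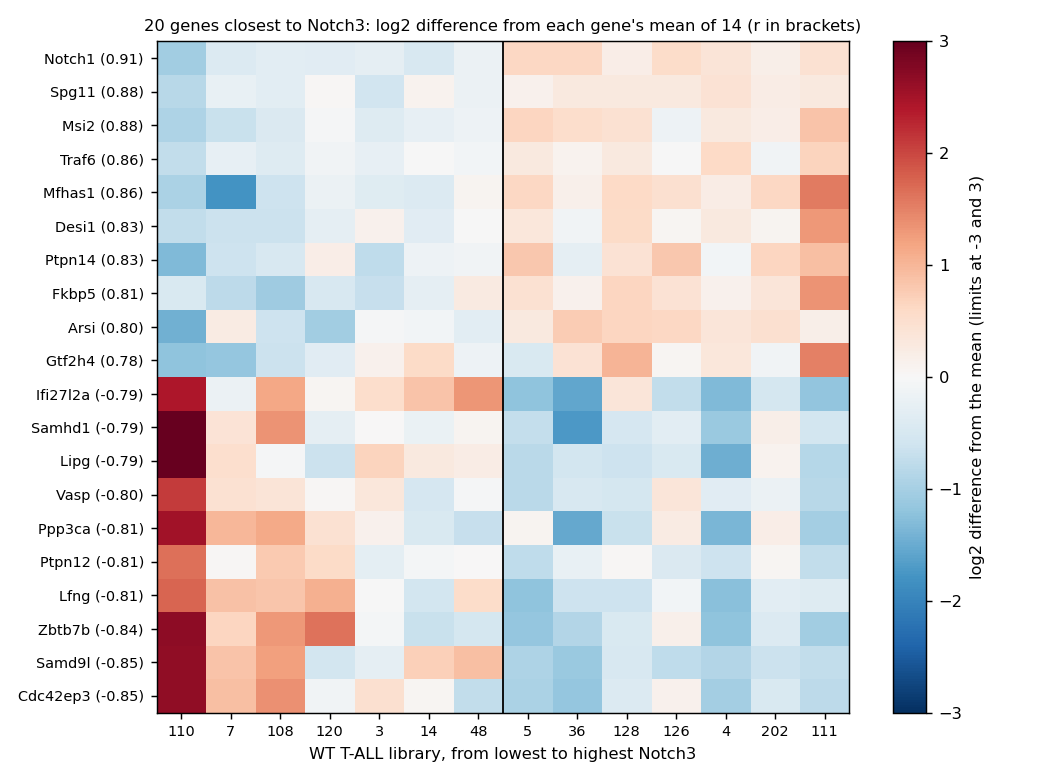
The 20 genes of smallest p (rows, with r in brackets) in the 14 WT T-ALL libraries ordered by Notch3 (columns), as the log2 difference from the gene's own mean, colour limited as the scale shows; the line marks the split. WT T-ALL 110 has the highest value of all 10 negative genes, and WT T-ALL 111 the highest Mfhas1 and Fkbp5.

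Of the 18 genes without overlap between the sides, 3 are described above (Notch1, Mfhas1 and Spg11), and the others were picked out only after their values were seen. The 11 further genes above were Irgq, Btbd7, Ick, Abtb2, Ric1, Kdm4a, Eif2ak3, Usp22, Elk1, Hectd3 and Mkl2. The 4 below were Prelid2, Car13, Jade1 and Amd2, the last of which has a near-identical copy, Amd1, so that reads may be shared. Their mean differences were small in part: 0.60 for Irgq (r = 0.88), 0.41 for Usp22, a deubiquitinase (r = 0.66), and 0.33 for Hectd3 (r = 0.58).

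In normal thymus, where r with Notch3 was taken over 6 controls for 114 genes named by rule, 7 of the 10 positive genes had a positive r and 5 of the 10 negative genes a negative one, against 44.8% and 55.2% of all 11443 genes that could be scored there. An exact permutation p under 0.05 was reached by 13 of the 114 (9.23% over all genes), and none was under 0.05 after Benjamini-Hochberg adjustment over them (smallest 0.158), the smallest p that 6 samples allow being 0.00139. The 13 included the mural marker Pdgfrb (r = 0.96, exact permutation p = 0.00139), Myc (0.97), Spen (0.95), Notch1 (0.94) and Mfhas1 (0.93). Pdgfrb was low in thymus, at 1.20 ± 0.28 (SD, n = 6). For Zbtb7b, Lfng, Lipg, Vasp and Samhd1 r was positive in thymus and negative in the leukemias, a difference that was not tested.

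Double-positive thymocyte genes had mostly positive slopes: of 14 listed, 13 were tested, 6 had a positive and 0 a negative slope at an unadjusted p under 0.05, and the median r was 0.48, or 0.24 without WT T-ALL 110, when the count was 2 and the share over all genes 3.48%. Rmnd5a, a subunit of a ubiquitin ligase that is abundant in thymus, measured 5.25 to 6.54 (median 5.74) in the high side and 4.84 to 5.68 (median 5.29) in the low side, with r = 0.75 (permutation p = 0.00202; limma adjusted p = 0.108). Cd8a had r = 0.50 and Cd4 -0.12.

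Of 12 double-negative thymocyte genes tested, 6 had a positive r, and the median r was 0.02. At an unadjusted p under 0.05, 4 had a positive and 1 a negative slope, against 6.14% and 8.03% of all genes. The 4 were Rag1 (r = 0.72), Rag2 (0.69), Dntt (0.62) and Ptcra (0.57), all of receptor gene assembly and the pre-T-cell receptor. Rag1 measured 6.26 to 7.84 (median 7.55) in the high side and 3.60 to 7.62 (median 5.38) in the low side (permutation p = 0.00349; limma adjusted p = 0.108). WT T-ALL 7, 14 and 48 of the low side lay within the range of the high side, and WT T-ALL 110 and 120 were lowest. The 1 negative was Cd44, an adhesion receptor of early progenitors and of many other cells, with 1.55 to 3.75 against 2.83 to 5.95 and r = -0.71 (-0.47 without WT T-ALL 110). Without that library the counts of the list were 4 positive and 0 negative, against 3.48% and 2.9% of all genes. Of 13 mature T-cell genes 0 had a positive and 3 a negative slope at an unadjusted p under 0.05. The filter on low values was passed by 1 of the 13 only through the low side, so a negative slope of that gene was favored by the filter. The mature T-cell genes of largest r were Gimap3 (-0.65) and Ly6c2 (-0.62), and Ly6c2 is made by monocytes as well. Their r was -0.42 and -0.36 without WT T-ALL 110, when 0 of the 13 reached that level.

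Of 15 pre-TCR, CD3 and proximal signaling genes 4 had a positive slope at an unadjusted p under 0.05 and 0 a negative one. The median r was 0.35, or 0.13 without WT T-ALL 110, when the count was 3 and the share over all genes 3.48%. Plcg1, the phospholipase downstream of the T-cell receptor, measured 4.36 to 5.23 in the high side and 3.49 to 4.68 in the low side, with r = 0.77 (permutation p = 0.00109; limma adjusted p = 0.108), and the kinase Fyn had r = 0.64. Of 6 E proteins and Id antagonists tested, 2 had a positive r and the median r was -0.26. These 2, Tcf12 (HEB, r = 0.64) and Tcf3 (E2A, r = 0.62), had an unadjusted p under 0.05, and 0 members had a negative slope at that level. Without WT T-ALL 110 their r was 0.44 and 0.39, and the counts were 0 positive and 1 negative (Id3).

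Oncogenic transcription factors of T-ALL had negative r. Of 16 listed only 7 were tested, and 0 of these had a positive r (54.7% over all genes). At an unadjusted p under 0.05, 5 had a negative slope. The median r of the 7 was -0.66 (-0.48 without WT T-ALL 110, when the count was 3 and the share over all genes 2.9%). With the neutrophil score as a covariate 1 had a negative slope at that level (3.49% of all genes), and with Notch1 as a covariate 0 (1.46% of all genes). The 5 were Hhex (r = -0.77), Erg (-0.72), Lyl1 (-0.69), Spi1 (-0.66) and Lmo2 (-0.59). Tal1, which reached 1 scaled RPKM in all 7 libraries of each side, was not among them (unadjusted limma p = 0.288), nor was Bcl11a (0.069). Erg passed the filter on low values only through the low side, where 4 libraries reached 1 scaled RPKM against 1 in the high side, so its negative r was favored by the filter and it is no support for the count. The 3 without WT T-ALL 110 were Hhex, Lmo2 and Bcl11a, and r was then -0.57 for Hhex and -0.45 for Erg. These are also factors of myeloid, erythroid, megakaryocyte or endothelial cells. Their levels were low: Hhex was 0.34 to 1.32 in the high side and 0.87 to 3.56 in the low side, and Erg 0.18 to 1.07 against 0.47 to 3.49, with the top value of both in WT T-ALL 110.

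NF-kappaB genes, tested in all 20 listed, held 0 with a positive and 7 with a negative slope at an unadjusted p under 0.05, and the median r was -0.21. Bcl3, an atypical inhibitor protein that acts in the nucleus, measured 0.42 to 1.18 against 0.53 to 2.77 (r = -0.78, permutation p = 0.00133, limma adjusted p = 0.108). Relb, a subunit of the alternative pathway, measured 0.72 to 1.83 against 1.51 to 2.81 (r = -0.72, permutation p = 0.00384, limma adjusted p = 0.125). Without WT T-ALL 110 the count was 2 (2.9% over all genes), and r was -0.61 for Bcl3 and -0.65 for Relb. Of 19 proliferation genes 18 had a positive r (54.7% over all genes), with a median r of 0.26, or 0.11 without WT T-ALL 110. Of the 19, 0 reached an unadjusted p under 0.05, and the 2 of largest r were Mcm7 (0.46) and Mcm6 (0.45), subunits of the replicative helicase. Of 15 survival and death genes, 1 had a positive (Bcl2l11, encoding BIM, r = 0.53) and 1 a negative slope (Cdkn1a, encoding p21, r = -0.61) at an unadjusted p under 0.05. These counts were near the shares over all genes, 6.14% and 8.03%. Without WT T-ALL 110, which held the top Cdkn1a value (3.68), its r was -0.34, and 0 of the 15 reached that level in either direction.

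**Figure D4:**
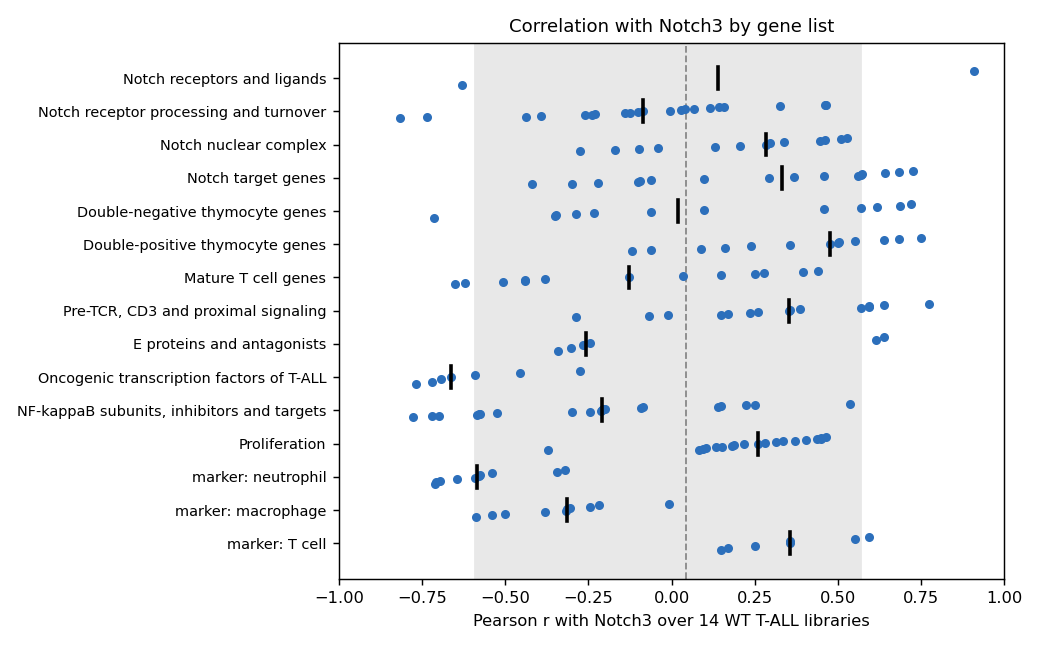
Pearson r with Notch3 over 14 WT T-ALL libraries for each tested gene (points) of 15 lists, with list medians as black ticks; the grey band holds the central 90% of all 11475 genes (-0.59 to 0.57) and the dashed line their median (0.04). Oncogenic factors (-0.66) and neutrophil markers (-0.59) have the lowest medians and double-positive genes (0.48) the highest.

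Markers of other cells in the spleen also differed along the ranking. Of 10 neutrophil markers, 8 had a negative slope at an unadjusted p under 0.05 and the median r was -0.59, or -0.26 without WT T-ALL 110, when the count was 0. Their summed level was 639 to 5719 scaled RPKM (median 1827) in the high side and 1039 to 84710 (median 4581) in the low side. The neutrophil score had r = -0.59 with Notch3 (permutation p = 0.0259; 0.364 after adjustment over 15 scores and measures), rho = -0.34 and r = -0.26 without WT T-ALL 110. Ly6g, the surface antigen of mouse neutrophils, reached 8.38 in WT T-ALL 110 against 6.17 in the next, WT T-ALL 108. With the neutrophil score as a covariate 868 genes had an unadjusted p under 0.05, in place of 1626, 4.07% of genes with a positive and 3.49% with a negative slope; 4 Notch targets and 3 double-positive genes were among the former, 4 NF-kappaB genes among the latter. At a fixed neutrophil score r was 0.855 for Mfhas1, 0.61 for Nrarp, -0.72 for Lfng, -0.76 for Samd9l and -0.79 for Hhex. It was closer to 0 than without the score for Tcf7 (0.27 from 0.57), Tcf12 (0.35 from 0.64), Ly6c2 (-0.26 from -0.62), Notch2 (-0.42 from -0.63) and Cd68, a macrophage marker (-0.23 from -0.59). In bulk spleen fewer cells of a type and less RNA per cell cannot be told apart.

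The T-cell score overlapped between the sides, at 7.85 ± 0.26 and 7.66 ± 0.50 (SD, n = 7 each), with r = 0.45 (permutation p = 0.108). As the plot of scores shows, the highest T-cell scores were in WT T-ALL 48 and 14, at the middle of the ranking. All 7 T-cell markers had a positive r (54.7% over all genes), and 2, Lck (0.59) and Thy1 (0.55), an unadjusted limma p under 0.05. Leaving out WT T-ALL 110, r was 0.28 for the T-cell score, 0.22 for Lck and 0.29 for Thy1, and 0 of the 7 reached that level. Of 10 macrophage markers 3 and of 5 megakaryocyte markers 1 had a negative slope at that level. Of 10 erythroid markers 0 did so in either direction. Without WT T-ALL 110 the negative counts were 0, 3 and 1 in that order, and the share over all genes was 2.9%. Among the 5 megakaryocyte markers Gp1bb passed the filter on low values only through the low side (highest value 1.93, against 0.70 in the high side). A negative slope of Gp1bb was therefore favored by the filter, and it is no support for the count. Mural markers, from cells that express Notch3 themselves, had a score with r = -0.04 (permutation p = 0.9), but of their 8 members only Pdgfrb passed the filter on low values (r = 0.30, or 0.64 within the 10 libraries of the larger set). Their summed level was 4.5 to 95.4 scaled RPKM (median 66.1) in the high side and 17.5 to 68.1 (median 22.4) in the low side, and with the mural score as a covariate 1621 genes had an unadjusted p under 0.05. Col1a2, a collagen of fibroblasts, measured 2.34 to 6.62 in the high side and 0.63 to 6.10 in the low side, with r = 0.49.

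**Figure D5:**
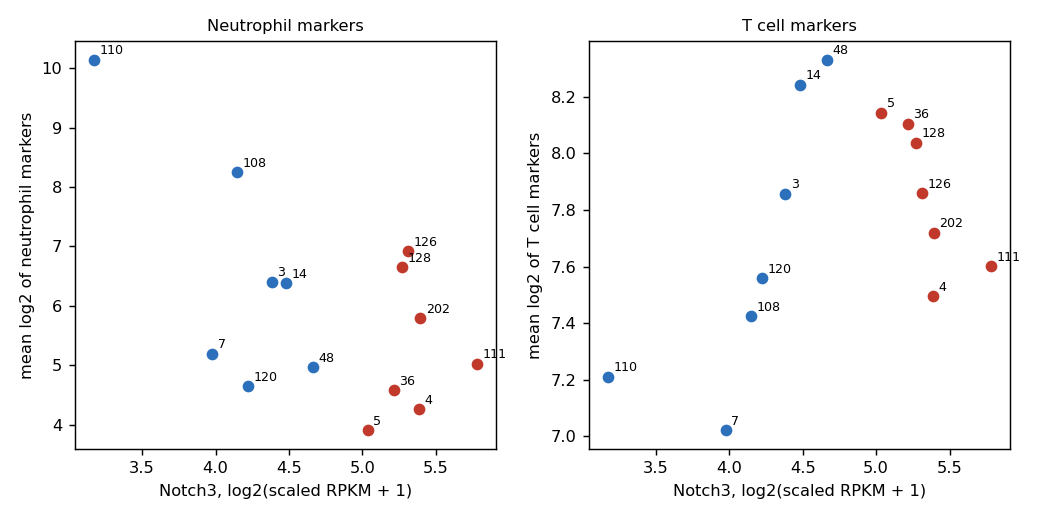
Mean log2 value of neutrophil markers (left) and T-cell markers (right) against Notch3 in log2(scaled RPKM + 1) in the 14 WT T-ALL libraries, numbered as in their labels; red, higher 7; blue, lower 7. WT T-ALL 110 has the lowest Notch3 and the highest neutrophil score (10.14).

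Notch1 and Notch3 moved so closely that their shares could be separated only in part. With the Notch1 value as a covariate 499 genes had an unadjusted p under 0.05 for Notch3 and 0 of the Notch targets (2.89% of all genes with a positive slope). At fixed Notch1 the r with Notch3 was -0.01 for Nrarp, 0.06 for Dtx1, 0.17 for Heyl, -0.12 for Tcf7, 0.35 for Ptcra and 0.19 for Trib2, and 0.65 for Mfhas1 and -0.35 for Lfng. At fixed Notch3 the r with Notch1 was 0.49 for Nrarp, 0.32 for Dtx1, 0.24 for Heyl and 0.44 for Tcf7, but -0.09 for Ptcra and 0.10 for Trib2, so the 6 targets did not all lie closer to Notch1. These are descriptions over 14 libraries with 2 correlated receptors, given with no test.

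Neighbours of Notch3 on chromosome 17 were taken for comparison. Of 21 genes in the table within 500 kb, 11 were tested, 0 had an unadjusted p under 0.05 and the median r was 0.01. The largest was that of Wiz (r = 0.43, or 0.74 within the 10 libraries of the larger set), a zinc finger protein.

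Transcript length also ran with r. Over genes sorted by their longest annotated transcript, the median r with Notch3 was -0.05 in the shortest of 3 equal bins (median 1764 bases), 0.04 in the middle bin (3331) and 0.15 in the longest bin (5528). A positive slope at an unadjusted p under 0.05 was seen in 2.66%, 4.93% and 10.8% of these bins, and a negative one in 10.5%, 8.02% and 5.68%. Notch3 itself has a transcript of 8016 bases. Each library's own length trend had r = 0.41 with Notch3 (permutation p = 0.147). With that trend as a covariate 1409 genes had an unadjusted p under 0.05, and Notch1 had a slope of 0.61 and an adjusted p of 0.133 by limma.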

How the data were processed

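Whole-spleen RNA was made into stranded poly(A) libraries, sequenced as paired 100-base reads and mapped to mm10 with the OSA aligner in ArrayStudio by the authors. The deposited values are log2(scaled RPKM + 1) per gene, which the authors scaled so that each library's upper quartile lay near 10 (9.99 to 10.0), and they were used as deposited. Counts are not in the table, so depth and counting error are unknown. Of 24475 genes 24375 (99.6%) were matched by gene ID to RefSeq (GRCm38.p6), and 27 symbols turned into dates were restored by ID.

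The 14 WT T-ALL libraries were ranked by Notch3. Genes with at least 1 scaled RPKM in 3 or more libraries were kept (11475, Notch3 left out) and regressed on Notch3 with limma 3.58.1 (R 4.3.3; trend and robust), two-sided, with Benjamini-Hochberg adjustment at 0.05, after a test on simulated data. Pearson and Spearman correlations had two-sided permutation tests (100000 resamples; all orders in thymus; Python 3.11.15, SciPy 1.17.1). Per the study each recipient carried 1 thymus lobe and each leukemia was a separate case, so libraries were taken as 1 mouse each; whether lobes shared a donor is not given in the sources used here. Genes were named by the 10 smallest p per direction at 5 scaled RPKM or more (leaving out receptor, immunoglobulin, hemoglobin, ribosomal, mitochondrial, small RNA and predicted genes), as members of 4 Notch lists, as the 2 of largest r of other lists, and as genes within 500 kb of Notch3; some genes the rule names are not reported here. The members and lists were chosen with earlier results of these data known. Alternatives changed the offset (0.1), filter, normalization, libraries, covariates and split.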

Additional observations from a re-analysis of the deposited data

Results flagged for a closer look

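Within each side of 7 libraries, 1 library stood far from the other 6 by Dixon's test in 18 instances of 164 sets of values tested over named genes and scores, and chance flags about 1 in 20 such sets. In the low side WT T-ALL 110 accounted for 5: Notch1 at 5.75 (next 6.34), Lipg at 6.04 (next 3.06), Vasp at 7.21 (next 5.57), the proprotein convertase Furin at 4.17 (next 3.15) and Numb at 3.77 (next 3.04). Also in the low side, cyclin D1 (Ccnd1) was 2.05 in WT T-ALL 14 (next 4.55), and the mitochondrial share was 45.9% in WT T-ALL 7 (next 18.2%).

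In the high side WT T-ALL 111 was far in Mfhas1 at 5.75 (next 4.82), Fkbp5 at 8.80 (next 8.09) and Psenen at 5.27 (next 5.63). WT T-ALL 36 was far in Nrarp at 6.39 (next 4.31), Hes1 at 6.00 (next 5.39) and Snw1 at 6.81 (next 6.35). WT T-ALL 126 was far in Itch at 3.53 (next 4.28), WT T-ALL 4 in Spen at 3.81 (next 3.18) and the mural score at 0.439 (next 0.772), and WT T-ALL 5 in Rfng at 4.27 (next 3.46) and the natural killer cell score at 1.31 (next 0.61).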

How the results depend on the processing

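No paired analysis was possible because the numbers in the labels name single mice and the comparison lies within 1 group. The count of genes past the adjusted threshold by limma was 0 as reported and under most alternatives. It was 2 with the T-cell score as a covariate (Ephb6 and Gm13139), 7 with the library set as a term, chosen after seeing the data (Notch1 with an adjusted p of 0.0279, Mfhas1, Lfng, Samd9l, Zbtb7b, Cdc42ep3 and Ptpn12), and 0 to 9 when 1 library was left out: 2 without WT T-ALL 110 (Fkbp5 and Mfhas1), 2 without WT T-ALL 7 (Ephb6 and Mfhas1) and 9 without WT T-ALL 120 (Notch1, Mfhas1, Msi2, Ptpn14, Samd9l, Cdc42ep3, Lipg, Akr1c13 and Ifitm3). Notch1 had an adjusted p of 0.721 without WT T-ALL 110 with a slope of 0.63. The cause of these changes was not tested.

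The count at an unadjusted p under 0.05, 1626 as reported, was 1003 with the sides as groups, 499 with Notch1 as a covariate, 868 with the neutrophil score, 904 with neutrophil and macrophage scores (added later), 648 without the 2 farthest libraries and 724 to 1795 when 1 library was left out, lowest without WT T-ALL 110. Genes differing by at least 1 log2 unit between sides, 273 as reported, were 743 with an offset of 0.1 and 163 without WT T-ALL 110 (added later), and genes without overlap, 18 as reported, were 164 between the 5 highest and 5 lowest.

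Among lists, the 6 Notch targets became 0 with Notch1 as a covariate and 5 to 7 when 1 library was left out. The 5 oncogenic factors became 0 with Notch1, 1 with the neutrophil score, 2 with neutrophil and macrophage scores, 3 with the filter at 5 and 3 to 6 when 1 library was left out. The 6 double-positive genes became 2 with the sides as groups, 1 with Notch1 and 3 with the T-cell score, the neutrophil score, neutrophil and macrophage scores, the rank of Notch3, the 10 libraries or without the 2 farthest, and 2 to 7 when 1 library was left out (2 without WT T-ALL 110, 3 without WT T-ALL 4). The 7 NF-kappaB genes became 2 with the sides, 0 with Notch1, 4 with the T-cell score, the neutrophil score, both myeloid scores, the filter at 5 or the rank of Notch3, 1 without the 2 farthest, and 2 to 8 when 1 library was left out (2 without WT T-ALL 110). The neutrophil score had rho = -0.34 (permutation p = 0.24) in place of r = -0.59.

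Of 114 named genes, 52 had an unadjusted p under 0.05. Their slopes changed sign in 10 of 1603 values, all with Notch1 as a covariate: Ifi27l2a 0.16, Nrarp -0.026, Tcf7 -0.12, Tcf3 -0.001, Plcg1 -0.017, Fyn -0.43, Cd68 0.20, Adgre1 0.50, Itgax 0.48 and Thy1 -0.14. Of the other genes, 168 of 1902 values changed sign. Depth is unknown, and low genes cannot be given a counting error.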
